A study of Mus musculus with 40 samples.

Results

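Hematopoietic progenitor cells of 14-day-old mice labelled Runx1-HET were compared with those of wild type mice of the same age by RNA sequencing. The comparison rests on 8 libraries, 4 labelled Runx1-HET and 4 labelled wild type, chosen by genotype and age from the 40 samples of the series. They were fitted together with the other 16 libraries of the same age, from mice labelled FLT3-ITD/Runx1-HET, FLT3-ITD, FLT3-ITD/NUP98-HOXD13 and NUP98-HOXD13, so that all 24 share 1 estimate of the spread. In Flt3-ITD a stretch of the Flt3 receptor tyrosine kinase is repeated, which leaves the receptor active without its ligand, and NUP98-HOXD13 joins a nucleoporin to a HOX protein. None of the 8 libraries compared carries either of them. The labels do not say which part of Runx1 was altered or in which cells, nor whether the 4 libraries of a group came from separate animals, so the tests measure the scatter of these libraries, which may be technical.

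RUNX1 is a transcription factor that binds DNA together with its partner CBFB and is needed for the first blood stem cells to form in the embryo. In later life it acts on platelet, lymphoid and myeloid differentiation, and inherited loss of 1 copy in people causes a platelet disorder with a raised risk of leukemia. Multipotent progenitors are the cells between the stem cell and the lineage-restricted progenitors, and part of them already transcribe lymphoid genes at a low level.

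The total per library was 16259118 to 21725409 counts in Runx1-HET and 13749184 to 22638524 counts in wild type. The source label, hematopoietic progenitor or multipotent progenitor, was met by its markers. Kit, the stem cell factor receptor, ranged from 772 to 1089 CPM (read counts scaled to library size, here with the TMM factors of edgeR) in the Runx1-HET libraries and from 739.6 to 1169.5 CPM in wild type, and Cd34 from 2119 to 2251 CPM in Runx1-HET and 1934 to 2416 CPM in wild type. Wild type library 1 stood apart from the others: comparing its counts with each of the other 3 wild type libraries gave a chi-square of 35.4 to 36.4 per degree of freedom, against 11.4 to 21.7 between Runx1-HET libraries and 11.4 to 17.5 between the remaining wild type libraries. In Runx1-HET library 4 and wild type library 2 the Y-linked counts exceeded those of Xist, and in the other 6 libraries, 3 in each group, Xist exceeded them.

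Runx1 itself (ENSMUSG00000022952, chr16:92601466-92826149, minus strand, GRCm38) had 46.6, 49.6, 54.5 and 58.1 CPM in the Runx1-HET libraries, against 39.4, 52.1, 49.7 and 57.5 CPM in wild type. The groups overlapped, and the log2 fold change of Runx1-HET over wild type was 0.07 ± 0.13 (SE; edgeR adjusted p = 0.916). A count over the whole gene does not check the label, since a transcript from an altered allele can still be counted. The other members of the family were also within the spread: Runx2 averaged 88.8 ± 6.76 CPM in Runx1-HET and 91.8 ± 9.65 CPM in wild type, Runx3 70.1 ± 3.33 CPM in Runx1-HET and 65.4 ± 6.07 CPM in wild type, and the partner Cbfb 73.996 ± 7.25 CPM in Runx1-HET and 67.997 ± 6.999 CPM in wild type (SD, n = 4 each). None of the 7 RUNX and core binding factor genes passed the test, with DESeq2 or with edgeR, and 0 had an unadjusted p under 0.05. Their median log2 fold change was 0.07. Among 19 tested genes that the literature reports as RUNX1 targets, none passed either (median 0.10), 2 having an unadjusted p under 0.05 in each direction. DESeq2, and edgeR without wild type library 2, called 1 of the 19 higher. Among these 19, Hmga2, a chromatin protein of fetal stem cells, had 140.1, 154, 119 and 137 CPM in Runx1-HET, against 82.7, 121, 87.9 and 97.1 CPM in wild type. Its log2 fold change was 0.50 ± 0.14, with an edgeR adjusted p of 0.0977 and a DESeq2 adjusted p of 0.0339. Alox12 and Nfe2, also of the 19, went the other way. Alox12 had a log2 fold change of -0.97 ± 0.42 (edgeR adjusted p = 0.483) and Nfe2 of -0.22 ± 0.10 (edgeR adjusted p = 0.505).

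Across all genes, 112 of 14394 tested passed at an adjusted p under 0.05 (edgeR's quasi-likelihood test with Benjamini-Hochberg adjustment over all genes tested), which is 0.778% of them. Of these, 37 were higher in Runx1-HET (0.257%) and 75 were lower (0.521%), and 110 were protein coding. The median log2 fold change was 1.08 among the 37 and -0.93 among the 75, and 56 of the 112 changed by more than 1 on the log2 scale (21 higher, 35 lower). The median over all genes tested was -0.0049. In 103 of the 112 every library of one group lay above every library of the other, as in 673 of all genes tested (4.68%). The count depended on single libraries: leaving out wild type library 1 gave 176 calls (64 higher, 112 lower, 102 of the 112 among them), leaving out wild type library 3 gave 73 (25 higher, 48 lower) and leaving out Runx1-HET library 4 gave 82 (35 higher, 47 lower). In all 8 fits that left out 1 library, 59 genes (21 higher, 38 lower) passed. DESeq2 called 207 (81 higher, 126 lower), which included all 112.

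**Figure D1:**
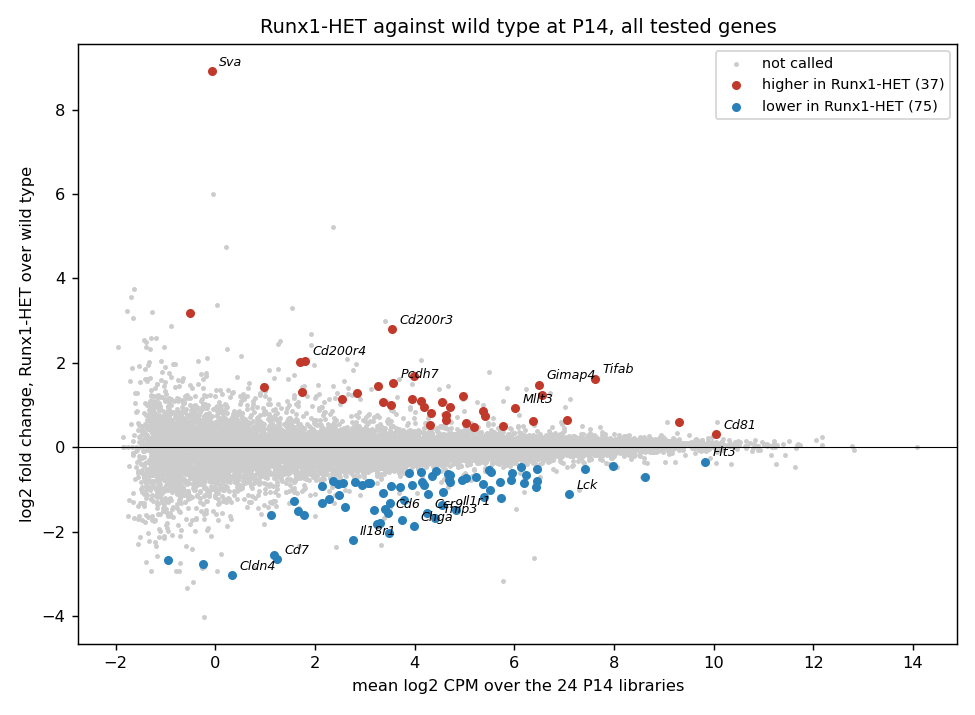
Log2 fold change of Runx1-HET over wild type (vertical axis) against the mean log2 CPM over the 24 libraries (horizontal axis) for the 14394 genes tested, with the 37 higher and 75 lower genes in colour. Called genes lie between mean log2 CPM of -0.96 (Aox4) and 10.04 (Cd81).

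RUNX proteins recognise the letters TGTGGT and TGCGGT. Either word, on either strand, was looked for in RefSeq promoter windows of 300 bases (250 before to 50 after each gene's start, GRCm38.p6). Of 83 windows found for 61 of the 75 lower genes, 27 held it (32.5%), as did 7 of 33 windows for 30 of the 37 higher genes (21.2%) and 2861 of 13317 windows for all genes tested (21.5%). The word in either form was held by 22.4% of all 32851 windows in the RefSeq table. The exact 95% binomial interval of the share was 22.6% to 43.7% for the lower genes and 8.98% to 38.9% for the higher ones. It covers counting error only and takes windows as independent, while some genes have several windows, so it may be too narrow. Counted by gene, 24 of the 61 lower genes, 7 of the 30 higher genes and 2605 of 10459 tested genes held the word. Of the 19 genes picked by the naming rule that passed in the same direction both here and in the comparison of 8 Flt3-ITD libraries described at the end, which shares no sample with it, 16 had a window and 5 held the word. Whether 5 of 16 exceeds the share of all tested genes that held the word, 2605 of 10459, was not tested. The windows of these 5 genes are printed here for their letters only, not as an excess over the other genes. The difference of these genes was seen in both sets of libraries, and their start region holds the letters RUNX proteins bind. The sequences are from RefSeq and read 5′ to 3′ on the gene's strand, with the motif in capitals (ACCACA and ACCGCA are the same words on the other strand). A match is a description of the letters and says nothing of binding. The window of Tnip3 lies inside the span that the gene annotation gives for it, since RefSeq starts its transcript further in.
Lck, chr4:129573592-129573891, minus strand, motif beginning 58 bases before the start: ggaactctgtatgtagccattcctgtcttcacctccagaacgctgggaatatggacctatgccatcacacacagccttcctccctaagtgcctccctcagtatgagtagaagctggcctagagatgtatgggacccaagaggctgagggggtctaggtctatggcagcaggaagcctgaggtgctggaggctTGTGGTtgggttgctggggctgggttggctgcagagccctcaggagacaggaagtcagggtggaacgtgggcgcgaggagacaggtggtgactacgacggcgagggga
Tnip3, chr6:65590148-65590447, plus strand, motif beginning 12 bases after the start: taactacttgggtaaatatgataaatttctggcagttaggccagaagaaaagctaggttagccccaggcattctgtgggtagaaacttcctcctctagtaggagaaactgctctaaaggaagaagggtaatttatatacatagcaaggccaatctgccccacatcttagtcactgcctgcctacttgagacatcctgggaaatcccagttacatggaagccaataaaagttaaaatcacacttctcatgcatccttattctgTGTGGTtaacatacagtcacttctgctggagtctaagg
Il18rap, chr1:40515112-40515411, plus strand, motif beginning 31 bases after the start: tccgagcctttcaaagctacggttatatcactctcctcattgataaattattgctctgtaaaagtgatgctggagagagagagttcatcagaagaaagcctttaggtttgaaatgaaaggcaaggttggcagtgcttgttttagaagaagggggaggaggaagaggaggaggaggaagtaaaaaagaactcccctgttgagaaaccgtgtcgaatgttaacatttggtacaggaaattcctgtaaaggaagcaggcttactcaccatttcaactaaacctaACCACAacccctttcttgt
Gimap4, chr6:48684328-48684627, plus strand, motif beginning 145 bases before the start: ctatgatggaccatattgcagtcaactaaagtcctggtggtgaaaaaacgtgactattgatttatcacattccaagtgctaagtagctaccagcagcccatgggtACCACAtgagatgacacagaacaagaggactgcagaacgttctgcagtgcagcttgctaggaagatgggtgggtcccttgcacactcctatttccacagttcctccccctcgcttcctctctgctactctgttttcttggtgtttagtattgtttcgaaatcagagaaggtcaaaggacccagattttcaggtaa
Flt3, chr5:147400440-147400739, minus strand, motif beginning 61 bases before the start: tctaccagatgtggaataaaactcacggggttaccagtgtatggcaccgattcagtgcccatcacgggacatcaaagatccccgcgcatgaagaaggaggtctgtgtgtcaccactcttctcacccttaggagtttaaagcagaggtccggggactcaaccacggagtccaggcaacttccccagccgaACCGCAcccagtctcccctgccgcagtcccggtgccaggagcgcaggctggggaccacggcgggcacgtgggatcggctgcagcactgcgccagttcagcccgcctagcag

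Of 19 tested genes of T cell receptor signalling and the T lineage, Lck, Lat, Cd6 and Cd7 fell in Runx1-HET and none rose (median log2 fold change -0.11). Over all genes tested, 0.521% were called lower. Of the 19, 6 had a log2 fold change above 0, the highest being 1.20. An unadjusted p under 0.05 was reached by 2 of the 19 in the higher direction and by 5 in the lower. Lck (ENSMUSG00000000409, chr4:129548344-129573641, minus strand), the kinase that starts signalling from the T cell receptor, had 94.1, 76.96, 62.6 and 53.2 CPM in the Runx1-HET libraries, against 159, 169, 155 and 137 CPM in wild type. Every Runx1-HET library was below the lowest wild type library, and the log2 fold change was -1.12 ± 0.15 (edgeR adjusted p = 1.15e-04). Lat, the membrane adaptor downstream of that kinase, had 45.96, 41.4, 44.8 and 36.2 CPM in Runx1-HET, against 62.99, 58.8, 65.9 and 67.6 CPM in wild type, again without overlap (-0.60 ± 0.10, edgeR adjusted p = 6.40e-04). Cd6, a coreceptor of T cells, had 5.505, 4.84, 3.43 and 2.92 CPM in Runx1-HET, against 11.6, 13.9, 14.2 and 9.48 CPM in wild type, a difference of about 3-fold (-1.57 ± 0.22, edgeR adjusted p = 9.70e-05). Cd7, an early surface marker of T and natural killer cells, was near the limit of detection in Runx1-HET, with 0.742, 0.967, 0.202 and 0.313 CPM, against 2.17, 3.89, 4.18 and 3.97 CPM in wild type (-2.66 ± 0.42, edgeR adjusted p = 5.24e-04). All 4 calls were kept in each fit that left out 1 library.

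The other T lineage genes did not pass. Cd4 averaged 58.2 ± 15.9 CPM in Runx1-HET and 54.999 ± 8.31 CPM in wild type (SD, n = 4 each), and Cd27 averaged 258 ± 18.96 CPM in Runx1-HET and 278 ± 76.03 CPM in wild type. Of the genes that define mature T cells, Cd8a had no count in the 8 libraries, and Cd3g averaged 0.143 ± 0.0740 CPM in Runx1-HET and 0.198 ± 0.219 CPM in wild type. The summed level of the list ranged from 462 to 593 CPM in the Runx1-HET libraries and from 606 to 766 CPM in the wild type libraries, without overlap. The 4 called genes carried much of that gap, at 92.7 to 146 CPM in Runx1-HET and 218 to 246.0 CPM in wild type, and the rest of the list overlapped, at 369 to 447 CPM in Runx1-HET and 379.7 to 529.8 CPM in wild type. In bulk RNA, fewer cells that transcribe these genes and less RNA of them per cell cannot be told apart.

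The receptors for interleukin-1 and interleukin-18, which lie next to each other on chromosome 1, were lower together. The receptors of this family bind ligands that activate NF-kappaB, and the chromosome 1 cluster holds a signalling receptor (Il1r1), a decoy receptor (Il1r2), the receptors for interleukin-36 and interleukin-33 (Il1rl2, Il1rl1) and both chains of the interleukin-18 receptor. Il18r1 (ENSMUSG00000026070, chr1:40465552-40500854, plus strand), the ligand-binding chain for interleukin-18, had 0.928, 1.75, 0.707 and 0.990 CPM in Runx1-HET, against 4.98, 2.81, 7.49 and 5.16 CPM in wild type. That is a log2 fold change of -2.21 ± 0.30 without overlap of the groups (edgeR adjusted p = 8.50e-05). Its accessory chain Il18rap (ENSMUSG00000026068, chr1:40515362-40551705, plus strand) had 55.4, 50.3, 66.03 and 60.5 CPM in Runx1-HET, against 87.4, 77.9, 109 and 93.7 CPM in wild type (-0.66 ± 0.12, edgeR adjusted p = 0.00255).

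Il1r1 (ENSMUSG00000026072, chr1:40225080-40317257, plus strand) had 27.5, 23.7, 21.9 and 17.5 CPM in Runx1-HET, against 37.5, 65.6, 74.4 and 77.96 CPM in wild type (-1.50 ± 0.19, edgeR adjusted p = 7.73e-05). Wild type library 1, at the low end of its group, was still above all Runx1-HET libraries. Il1r2 had 6.74, 5.76, 5.604 and 4.01 CPM in Runx1-HET, against 11.9, 9.05, 8.83 and 9.902 CPM in wild type (-0.85 ± 0.19, edgeR adjusted p = 0.0188). Its call was lost without Runx1-HET libraries 2, 3 or 4 or wild type library 1 (edgeR adjusted p = 0.053 to 0.12). Between these genes lie Il1rl2 and Il1rl1, which did not follow. Il1rl2 had 11.4, 11.2, 13.1 and 13.5 CPM in Runx1-HET, against 20.5, 17.2, 7.75 and 4.67 CPM in wild type, with 2 wild type libraries above and 2 below all Runx1-HET libraries. Il1rl1 had 1.79, 1.43, 0.959 and 0.938 CPM in Runx1-HET, against 0.302, 0.869, 0.689 and 0.418 CPM in wild type, a log2 fold change of 1.13 ± 0.51 that did not pass (edgeR adjusted p = 0.505).

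**Figure D2:**
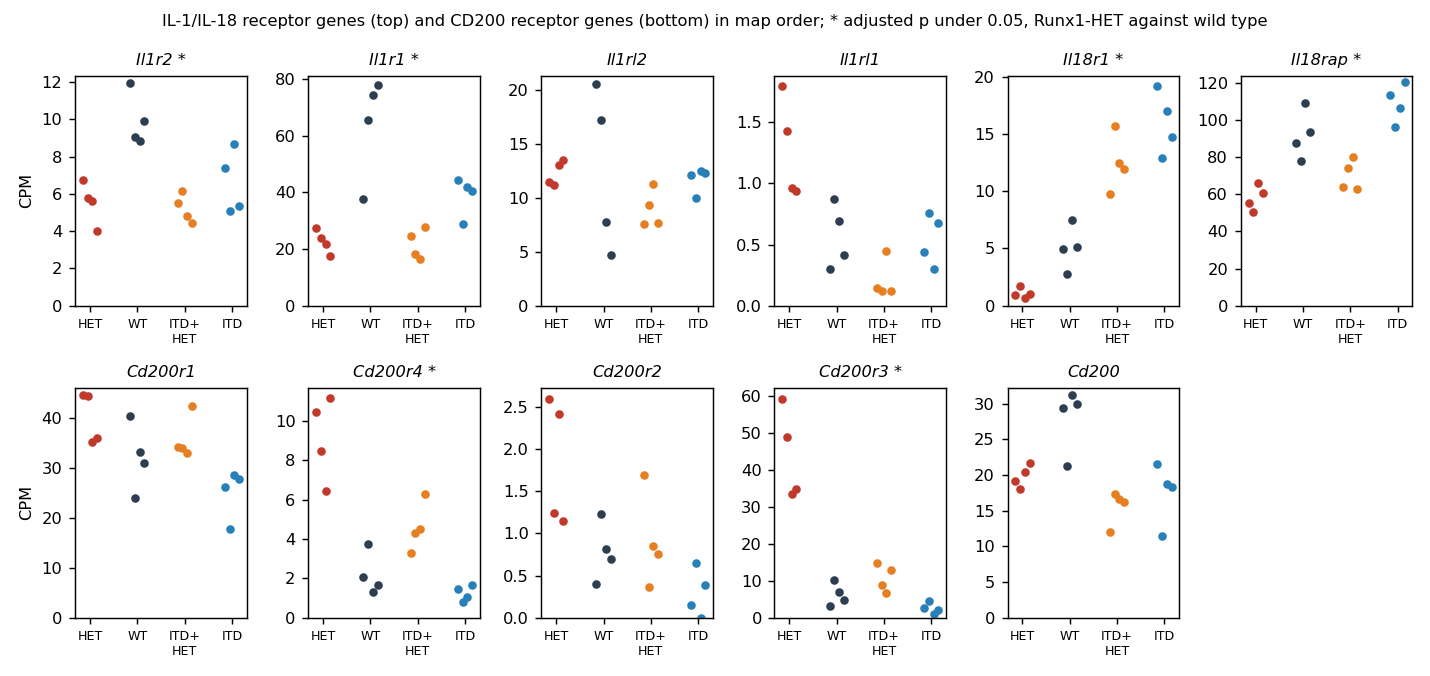
CPM per library (points) of the interleukin-1 and interleukin-18 receptor genes on chromosome 1 and the CD200 receptor genes on chromosome 16, each in map order, in libraries labelled Runx1-HET (HET), wild type (WT), Flt3-ITD with Runx1-HET (ITD+HET) and Flt3-ITD (ITD). Il1r2, Il1r1, Il18r1 and Il18rap were lower in HET than in WT and Cd200r4 and Cd200r3 were higher, while the other genes shown were not called.

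Over the 39 cytokine receptor genes tested, 5 fell and none rose (median log2 fold change 0.01): the 4 receptors above and Flt3. Without wild type library 1, Runx1-HET library 3 or Runx1-HET library 4 the count was 3. Flt3 (ENSMUSG00000042817, chr5:147330741-147400489, minus strand), the receptor that marks lymphoid-primed multipotent progenitors, had 992, 1196, 1177 and 950.1 CPM in Runx1-HET, against 1509, 1363, 1430.2 and 1185 CPM in wild type. The groups overlapped slightly, the log2 fold change was -0.35 ± 0.09 (edgeR adjusted p = 0.049), and the call was lost without Runx1-HET libraries 1, 3 or 4 or wild type libraries 1, 2 or 3 (edgeR adjusted p = 0.0509 to 0.252). In the list of 18 innate lymphoid and natural killer genes, the interleukin-18 receptor chains were the 2 that fell and none rose (median -0.25). Nkg7, a protein of cytotoxic granules, averaged 94.02 ± 22.5 CPM in Runx1-HET and 191 ± 47.3 CPM in wild type (SD, n = 4 each; -1.02 ± 0.24, edgeR adjusted p = 0.0513), and DESeq2 called 3 members of the list. The list's summed level ranged from 245 to 284 CPM in Runx1-HET and from 359 to 477 CPM in wild type, and Eomes, which defines mature natural killer cells, had no count. The 2 called genes made up 52.1 to 66.7 CPM of it in Runx1-HET and 80.7 to 117 CPM in wild type. The other members, Nkg7 among them, made up 193 to 222 CPM in Runx1-HET and 278 to 385 CPM in wild type. Of the 18 genes tested, 6 had a log2 fold change above 0. Il17re, a receptor chain for interleukin-17C that was chosen for mention after its values were seen, had 15.5, 15.98, 19.7 and 12.4 CPM in Runx1-HET, against 30.6, 28.2, 40.5 and 36.7 CPM in wild type (-1.10 ± 0.19, edgeR adjusted p = 9.92e-04).

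The 2 largest increases under the naming rule, which asks for a mean of at least 1 CPM, were of CD200 receptors. Cd200r3 and Cd200r4 are activating receptors that in mice pair with the adaptor DAP12, in contrast to the inhibitory Cd200r1. Cd200r3 (ENSMUSG00000036172, chr16:44943678-44981380, plus strand), known from basophils and mast cells, had 59.2, 48.8, 33.4 and 34.8 CPM in Runx1-HET, against 3.12, 10.3, 6.98 and 4.81 CPM in wild type. Every Runx1-HET library was more than 3 times as high as the highest wild type library, and the log2 fold change was 2.80 ± 0.47 (edgeR adjusted p = 0.00308). Cd200r4 (ENSMUSG00000062082, chr16:44811733-44839150, plus strand) had 10.5, 8.47, 6.41 and 11.2 CPM in Runx1-HET, against 2.06, 3.73, 1.29 and 1.67 CPM in wild type (2.05 ± 0.30, edgeR adjusted p = 1.73e-04). In the same cluster, Cd200r2 had 2.598, 1.24, 2.42 and 1.15 CPM in Runx1-HET, against 0.403, 1.23, 0.818 and 0.697 CPM in wild type (1.22 ± 0.47, edgeR adjusted p = 0.37). Cd200r1 averaged 40.1 ± 5.19 CPM in Runx1-HET and 32.2 ± 6.79 CPM in wild type (SD, n = 4 each), and neither it nor the ligand gene Cd200 (19.8 ± 1.57 CPM in Runx1-HET, 27.9 ± 4.51 CPM in wild type) passed. These receptor genes are near copies of each other, and how the authors' counting shared reads between them is not known here.

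Cd200r3 was also the only one of 14 mast cell, basophil and eosinophil markers to pass (median log2 fold change of the list 0.53, with 11 of 14 above 0). Cpa3, the mast cell carboxypeptidase, averaged 22.5 ± 4.001 CPM in Runx1-HET and 10.7 ± 1.21 CPM in wild type (1.09 ± 0.37, edgeR adjusted p = 0.299). Mcpt8, a basophil protease, averaged 1.53 ± 1.35 CPM in Runx1-HET and 2.88 ± 1.42 CPM in wild type. Prg2, the eosinophil major basic protein, ranged from 9.79 to 449.5 CPM in Runx1-HET and from 145 to 674 CPM in wild type. The summed level of the list ranged from 137 to 787 CPM in Runx1-HET and from 300.1 to 966 CPM in wild type, so the groups overlapped. Whether these cells contribute to the Cd200r3 counts was not tested. Without Runx1-HET library 2, 1 marker of the list was also lower, and the fit of the 8 libraries alone called 2 higher. In 3 of the 14 the groups did not overlap, against 4.68% of all genes tested.

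GIMAP genes encode GTPases that support the survival of lymphocytes, and 2 of 8 in the list rose. Gimap4 (ENSMUSG00000054435, chr6:48684549-48692060, plus strand) had 274, 268, 173 and 161 CPM in Runx1-HET, against 67.4, 84.9, 76.8 and 84.4 CPM in wild type, with no overlap (1.48 ± 0.21, edgeR adjusted p = 2.74e-04). Gimap3 (ENSMUSG00000039264, chr6:48764464-48770851, minus strand) had 25.3, 17.1, 13.4 and 10.01 CPM in Runx1-HET, against 5.89, 7.06, 6.76 and 7.32 CPM in wild type (1.28 ± 0.26, edgeR adjusted p = 0.00723), a call that was lost without Runx1-HET library 1 (edgeR adjusted p = 0.0584). In both genes Runx1-HET libraries 1 and 2 were higher than libraries 3 and 4. The other 6 members had log2 fold changes of -0.19 to 0.24 and did not pass. The median of the list was 0.19, and without wild type library 1 the list held 3 higher genes.

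Of 23 genes of stem cell identity 2 rose and none fell, and the median log2 fold change was 0.10. An unadjusted p under 0.05 was reached by 4 of the 23 in the higher direction and by 4 in the lower. In 5 of the 23 the groups did not overlap, against 4.68% of all genes tested. Mllt3, a chromatin reader that maintains human stem cells in culture, had 114, 95.7, 92.03 and 88.96 CPM in Runx1-HET, against 46.9, 45.7, 54.5 and 58.9 CPM in wild type. All Runx1-HET libraries lay above all wild type libraries (0.92 ± 0.11, edgeR adjusted p = 2.46e-05). Slamf1, the surface marker CD150 of long-term stem cells, had 17.5, 14.5, 14.2 and 12.9 CPM in Runx1-HET, against 7.603, 6.03, 6.68 and 7.39 CPM in wild type (1.09 ± 0.18, edgeR adjusted p = 7.19e-04). Its neighbour Cd48, a marker of multipotent progenitors as opposed to stem cells, was higher as well, with 543, 549, 575 and 683 CPM in Runx1-HET, against 543, 339.8, 325 and 358 CPM in wild type (0.59 ± 0.14, edgeR adjusted p = 0.0385). The lowest Runx1-HET library (543.4 CPM) and the highest wild type library (542.5 CPM, library 1) nearly met. The call of Cd48 was lost without Runx1-HET libraries 2, 3 or 4 or wild type libraries 2, 3 or 4 (edgeR adjusted p = 0.0612 to 0.192), without a filter on low counts (0.118) and with only the 8 libraries in the fit (0.108). The other 21 stem cell genes did not pass: Mecom averaged 57.1 ± 4.04 CPM in Runx1-HET and 68.4 ± 5.16 CPM in wild type, and Procr 42.5 ± 12.7 CPM in Runx1-HET and 42.5 ± 6.03 CPM in wild type (SD, n = 4 each). Without Runx1-HET library 1 or wild type library 1, 1 member of the list was lower.

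Of 22 lymphoid priming and B lineage genes tested, Rag2 rose and Ccr9 and Flt3 fell, and the median log2 fold change was 0.38. Ccr9, the chemokine receptor that guides progenitors to the thymus, had 36.2, 29.5, 14.4 and 9.33 CPM in Runx1-HET, against 66.2, 82.6, 58.6 and 55.3 CPM in wild type. The groups did not overlap (-1.56 ± 0.31, edgeR adjusted p = 0.0127), but the call was lost without Runx1-HET library 3 (edgeR adjusted p = 0.0596) and with only the 8 libraries in the fit (edgeR adjusted p = 0.236). Rag2, a subunit of the recombinase of antigen receptor genes, had 62.7, 72.1, 59.8 and 54.6 CPM in Runx1-HET, against 39.7, 20.6, 21.8 and 26.2 CPM in wild type (1.20 ± 0.25, edgeR adjusted p = 0.0194). It lost its call without Runx1-HET library 2 or wild type libraries 2, 3 or 4 (edgeR adjusted p = 0.0684 to 0.103). The B lineage genes of the list did not pass. In 9 of the 22 genes the groups did not overlap, against 4.68% of all genes tested, with 8 of the 9 higher in Runx1-HET and Ccr9 lower. Il7r, the interleukin-7 receptor, had 34.7, 40.8, 28.2 and 29.9 CPM in Runx1-HET, against 17.8, 12.1, 13.997 and 14.6 CPM in wild type (1.19 ± 0.30, edgeR adjusted p = 0.0694). Cd79a, a chain of the B cell receptor, had 39.3, 39.8, 15.9 and 29.1 CPM in Runx1-HET, against 4.73, 6.29, 5.56 and 13.7 CPM in wild type (2.06 ± 0.65, edgeR adjusted p = 0.235). Ebf1, the transcription factor of early B cells, had 41.4, 42.1, 21.4 and 30.9 CPM in Runx1-HET, against 9.21, 12.3, 12.8 and 18.1 CPM in wild type (1.38 ± 0.55, edgeR adjusted p = 0.423). In these 3 genes every Runx1-HET library was above every wild type library. An unadjusted p under 0.05 was reached by 9 of the 22 in the higher direction and by 3 in the lower. Without Runx1-HET library 3 or wild type library 2 or 3, 1 gene of the list was called. DESeq2 called 3 higher and 2 lower, and the fit of the 8 libraries alone called 5 higher and none lower.

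In the platelet, erythroid and granulocyte lists 1 gene each passed. Treml1, a receptor of platelet granules, had 4.27, 5.39, 5.099 and 5.47 CPM in Runx1-HET, against 2.47, 1.79, 1.64 and 1.46 CPM in wild type, without overlap (1.45 ± 0.25, edgeR adjusted p = 0.00138). It was the 1 of 20 megakaryocyte and platelet genes that rose (median of the list 0.10). Pf4, a platelet chemokine whose gene is reported to be bound by RUNX1, averaged 9.66 ± 2.82 CPM in Runx1-HET and 10.02 ± 2.44 CPM in wild type (SD, n = 4 each). Gata1, the master factor of erythroid and megakaryocyte cells, had 13.9, 21.4, 22.01 and 18.6 CPM in Runx1-HET, against 13.9, 8.897, 12.6 and 9.13 CPM in wild type. The lowest Runx1-HET and the highest wild type library overlapped, the log2 fold change was 0.76 ± 0.18 (edgeR adjusted p = 0.0388), and the call was lost without Runx1-HET libraries 2, 3 or 4 or wild type libraries 2, 3 or 4 (edgeR adjusted p = 0.0673 to 0.152). It was the only call among 14 erythroid genes (median 0.20), and without Runx1-HET library 1 or wild type library 1 another erythroid gene was called lower.

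Ltf, which encodes lactoferrin of neutrophil granules, had 5.57, 3.45, 1.82 and 2.66 CPM in Runx1-HET, against 7.45, 28.6, 13.7 and 4.39 CPM in wild type. The groups overlapped and the value of wild type library 2 was the highest (-2.03 ± 0.43, edgeR adjusted p = 0.0214). The call was lost without Runx1-HET libraries 2, 3 or 4 or wild type libraries 2 or 3 (edgeR adjusted p = 0.055 to 0.109). It was the 1 of 22 granulocyte-monocyte genes that fell (median 0.10). Beside it, the granule gene Ngp ranged from 2.83 to 5.52 CPM in Runx1-HET and from 2.51 to 63.8 CPM in wild type, and Camp from 0.276 to 0.730 CPM in Runx1-HET and from 0.352 to 10.5 CPM in wild type, neither of which passed. Whether mature neutrophils contribute to these counts was not tested. Genes of the progenitors themselves did not pass: Mpo averaged 878 ± 411 CPM in Runx1-HET and 578 ± 147 CPM in wild type, and Spi1, which encodes the transcription factor PU.1, 19.9 ± 3.16 CPM in Runx1-HET and 22.2 ± 6.71 CPM in wild type (SD, n = 4 each).

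Of 24 regulators and targets of NF-kappaB signalling 1 rose and 1 fell, with a median of -0.01. Tifab (ENSMUSG00000049625, chr13:56173704-56178885, minus strand), a relative of the adaptor TIFA that dampens signalling through TRAF6, had 237, 272, 246 and 225 CPM in Runx1-HET, against 103, 60.03, 71.5 and 83.1 CPM in wild type. Every Runx1-HET library was at least 2 times as high as the highest wild type library (1.63 ± 0.22, edgeR adjusted p = 2.56e-04). Tnip3 (ENSMUSG00000044162, chr6:65525313-65634040, plus strand), which binds the inhibitor A20, had 19.1, 14.5, 12.97 and 10.1 CPM in Runx1-HET, against 58.2, 32.98, 46.9 and 43.9 CPM in wild type, and no Runx1-HET library reached the lowest wild type library (-1.69 ± 0.19, edgeR adjusted p = 7.01e-06). Both calls were kept in every fit that left out 1 library.

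The remaining genes with the largest changes belonged to none of the lists. Pcdh7, a protocadherin, had 15.6, 11.6, 11.9 and 15.3 CPM in Runx1-HET, against 3.68, 6.08, 5.08 and 3.97 CPM in wild type (1.52 ± 0.17, edgeR adjusted p = 7.01e-06). Gna14, a G protein subunit that activates phospholipase C, had 15.5, 20.4, 24.03 and 30.1 CPM in Runx1-HET, against 9.67, 5.47, 5.599 and 7.53 CPM in wild type (1.68 ± 0.23, edgeR adjusted p = 8.50e-05). Slfn2, which keeps lymphocytes quiescent, had 43.9, 46.6, 69.9 and 59.7 CPM in Runx1-HET, against 36.3, 15.6, 14.6 and 27.5 CPM in wild type (1.23 ± 0.24, edgeR adjusted p = 0.00942). In all 3 genes the groups were apart, which the naming rule required. With only the 8 libraries in the fit, Slfn2 lost its call (edgeR adjusted p = 0.133). Flrt3, an adhesion protein, averaged 4.86 ± 1.25 CPM in Runx1-HET and 1.23 ± 0.915 CPM in wild type (SD, n = 4 each; 2.02 ± 0.38, edgeR adjusted p = 0.00355). Chd7, a chromatin remodeller, averaged 3.34 ± 0.505 CPM in Runx1-HET and 1.24 ± 0.234 CPM in wild type (1.42 ± 0.29, edgeR adjusted p = 0.00955) and lost its call without wild type library 3 (edgeR adjusted p = 0.0546). Stx11, a syntaxin of cytotoxic granule release, averaged 2.602 ± 0.702 CPM in Runx1-HET and 1.05 ± 0.0226 CPM in wild type (1.31 ± 0.30, edgeR adjusted p = 0.024) and lost its call without Runx1-HET libraries 2 or 3 or wild type libraries 2, 3 or 4 (edgeR adjusted p = 0.0616 to 0.122).

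On the lower side, Cldn4, a tight junction claudin, had 0.186, 0.184, 0.757 and 0.469 CPM in Runx1-HET, against 1.56, 4.14, 5.34 and 2.16 CPM in wild type (-3.03 ± 0.60, edgeR adjusted p = 0.00688). Chga, the secretory granule protein chromogranin A, had 5.69, 4.47, 3.74 and 3.02 CPM in Runx1-HET, against 8.06, 15.1, 22.1 and 16.5 CPM in wild type (-1.87 ± 0.25, edgeR adjusted p = 9.78e-05). Both were low in every Runx1-HET library, and the lowest wild type value of each was in library 1. Gria2, a glutamate receptor subunit, averaged 2.47 ± 0.658 CPM in Runx1-HET and 8.4996 ± 2.57 CPM in wild type (SD, n = 4 each; -1.79 ± 0.32, edgeR adjusted p = 0.00242). Lrrn3, a leucine-rich repeat membrane protein, averaged 0.453 ± 0.262 CPM in Runx1-HET and 2.73 ± 0.917 CPM in wild type (-2.56 ± 0.46, edgeR adjusted p = 0.00249), and Them7 2.11 ± 0.596 CPM in Runx1-HET and 6.43 ± 1.54 CPM in wild type (-1.62 ± 0.25, edgeR adjusted p = 4.58e-04). These genes kept their calls in each fit that left out 1 library. Tfcp2l1, a transcription factor of pluripotent cells, averaged 1.56 ± 0.515 CPM in Runx1-HET and 4.79 ± 1.78 CPM in wild type (-1.61 ± 0.37, edgeR adjusted p = 0.0286), a call lost without Runx1-HET libraries 2, 3 or 4 or wild type libraries 2, 3 or 4 (edgeR adjusted p = 0.0569 to 0.15).

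**Figure D3:**
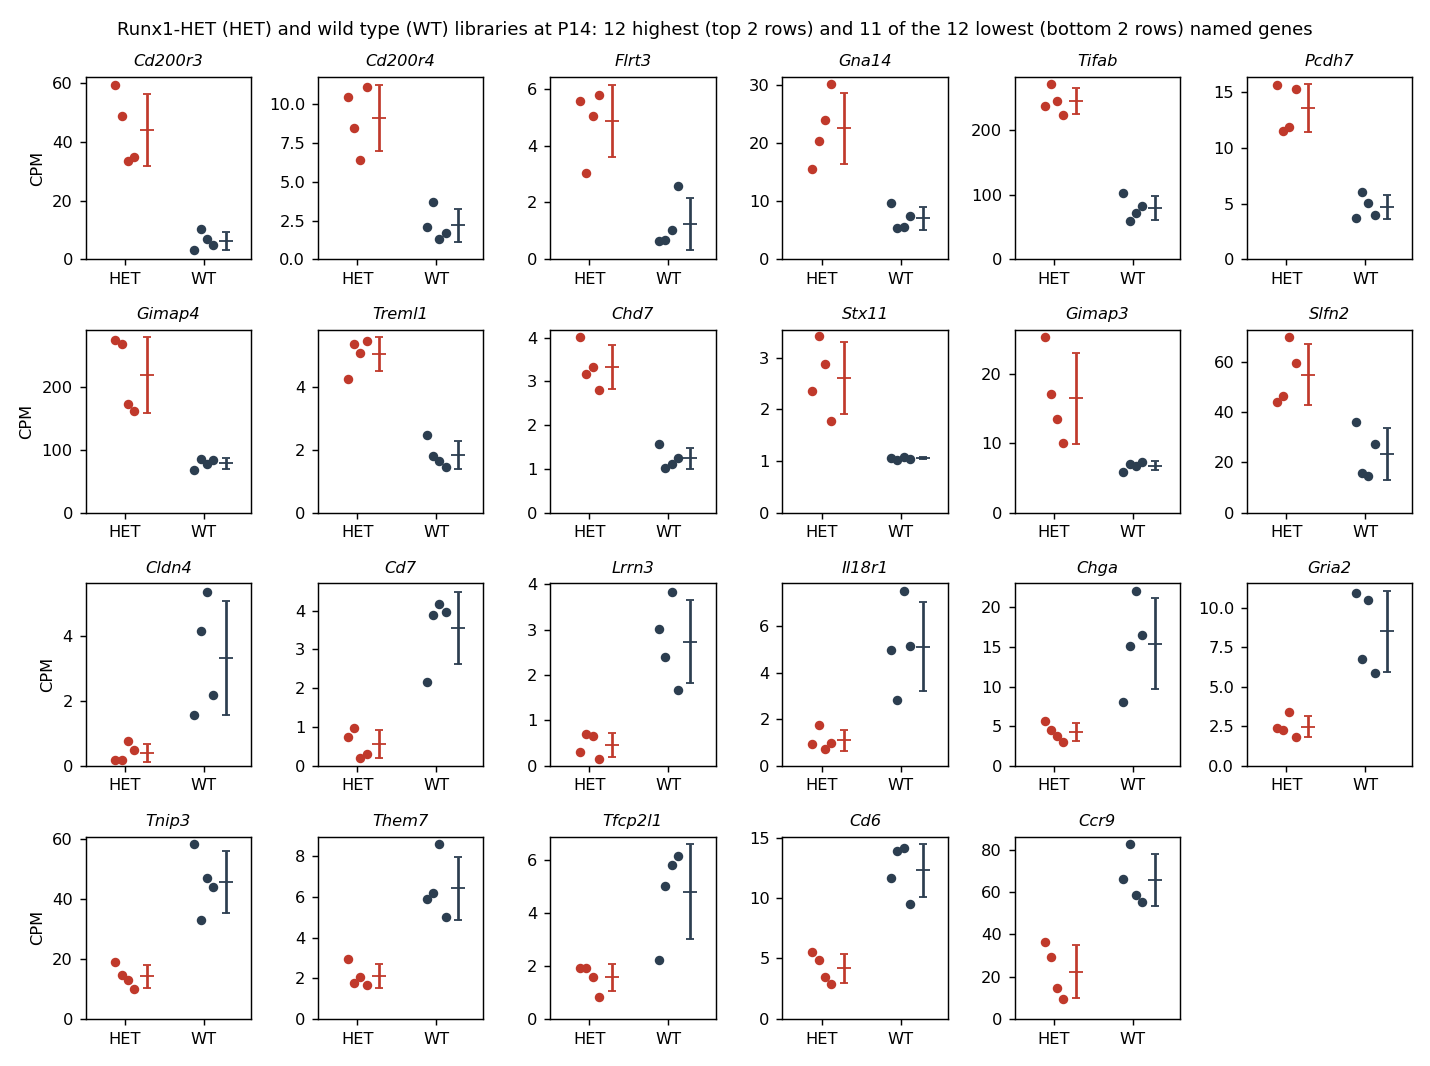
CPM of each library (points, linear axes starting at 0) with mean and SD (bars) for the 12 highest and 11 of the 12 lowest named genes, Runx1-HET (HET) left and wild type (WT) right. In each gene shown the groups do not overlap, which the naming rule required.

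The call with the largest fold was Sva (ENSMUSG00000023289, chr6:42038394-42042851, plus strand), known as seminal vesicle antigen, a secreted protein of the male reproductive tract. It was chosen for mention after its values were seen, since its mean level lies below the minimum of the naming rule. Sva had 57, 69, 47 and 54 counts in the Runx1-HET libraries, against 0 counts in each of the 4 wild type libraries. It was thus at least 74.9-fold higher in Runx1-HET, taking 3 counts over the group as the most that a total of 0 allows. The same division was seen with Flt3-ITD, with 51, 24, 52 and 48 counts in the Flt3-ITD libraries with Runx1-HET, against 0 in each Flt3-ITD library (at least 63.9-fold higher). The 4 NUP98-HOXD13 libraries had none, and 1 count was found among the 4 libraries with both Flt3-ITD and NUP98-HOXD13. All 8 libraries labelled Runx1-HET therefore had Sva counts, in libraries with more Xist than Y-linked counts as well as in the others.

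The lists without a called member covered other programs. Of 38 type I interferon-stimulated genes none passed with edgeR or DESeq2 (median log2 fold change 0.11, 1 with an unadjusted p under 0.05). Mx2 had 5.26, 5.94, 8.38 and 4.38 CPM in Runx1-HET, against 6.04, 1.79, 1.29 and 2.65 CPM in wild type, the value of wild type library 1 being the highest of its group. Without that library the median of the list was 0.31 and 1 gene was called higher, and without wild type library 2 the median was -0.05 and none was called. Of 22 genes of MYC and ribosome biogenesis none passed with edgeR or DESeq2, while 19 had a log2 fold change above 0 and 8 an unadjusted p under 0.05 in that direction (median 0.14). Myc averaged 693 ± 90.6 CPM in Runx1-HET and 546 ± 76.2 CPM in wild type, Srm, a polyamine enzyme, 31.4 ± 1.49 CPM in Runx1-HET and 24.2 ± 6.62 CPM in wild type, and the nucleolar protein gene Ncl 1774 ± 95.6 CPM in Runx1-HET and 1564 ± 164 CPM in wild type (SD, n = 4 each). Without wild type library 4, 1 gene of this list was called higher. Over all genes tested, 516 higher and 766 lower genes had an unadjusted p under 0.05.

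The 14 immediate early genes had a median of -0.37, no call with edgeR or DESeq2, and 3 lower genes with an unadjusted p under 0.05. Egr1 had 5.69, 6.68, 3.84 and 3.23 CPM in Runx1-HET, against 7.502, 12.3, 8.05 and 8.37 CPM in wild type (-0.90 ± 0.37, edgeR adjusted p = 0.439), and without wild type library 1 the list held 1 lower gene. No gene passed with either tool among 12 p53 targets (median 0.05), 30 cell cycle genes (0.01) and 12 HOX genes and cofactors (-0.16), and each of these lists held 1 gene with an unadjusted p under 0.05. Cdk6, a kinase of cell cycle entry, averaged 579 ± 129 CPM in Runx1-HET and 475 ± 61.6 CPM in wild type, and Hoxa9 had 59.4, 55.96, 63.3 and 57.9 CPM in Runx1-HET, against 68.03, 65.96, 73.6 and 73.2 CPM in wild type (-0.25 ± 0.11, edgeR adjusted p = 0.455). Markers of other cell types gave no call with edgeR among 15 macrophage and dendritic, 9 endothelial, 6 stromal and 2 hepatocyte genes tested. Summed levels were taken over all members, tested or not (18, 9, 10 and 7 genes in that order). The macrophage and dendritic sum was 116 to 155 CPM in Runx1-HET and 135 to 167 CPM in wild type. The endothelial sum was 596 to 730.2 CPM in Runx1-HET and 519 to 629.8 CPM in wild type. The stromal sum was 24.7 to 36.8 CPM in Runx1-HET and 41.3 to 48.5 CPM in wild type, without overlap. Most of it was Pdgfrb, which averaged 26.1 ± 4.76 CPM in Runx1-HET and 38.5 ± 2.74 CPM in wild type (edgeR adjusted p = 0.272). The hepatocyte sum was 10.04 to 13.1 CPM in Runx1-HET and 8.61 to 14.3 CPM in wild type. The hepatocyte genes Ttr, Serpina1a and Fgb had no count. In these 4 lists an unadjusted p under 0.05 was reached by 4 macrophage and dendritic genes (2 higher, 2 lower), 1 endothelial gene, 1 stromal gene and 0 hepatocyte genes. DESeq2 called 1 macrophage and dendritic gene higher (Adgre1, adjusted p = 0.00818) and 1 lower (Ccr7, adjusted p = 0.0237), and none in the other 3 lists. edgeR without wild type library 1 also called 1 gene of that list in each direction, and without Runx1-HET library 1 it called 1 lower. What part these cells play in the results was not tested.

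**Figure D4:**
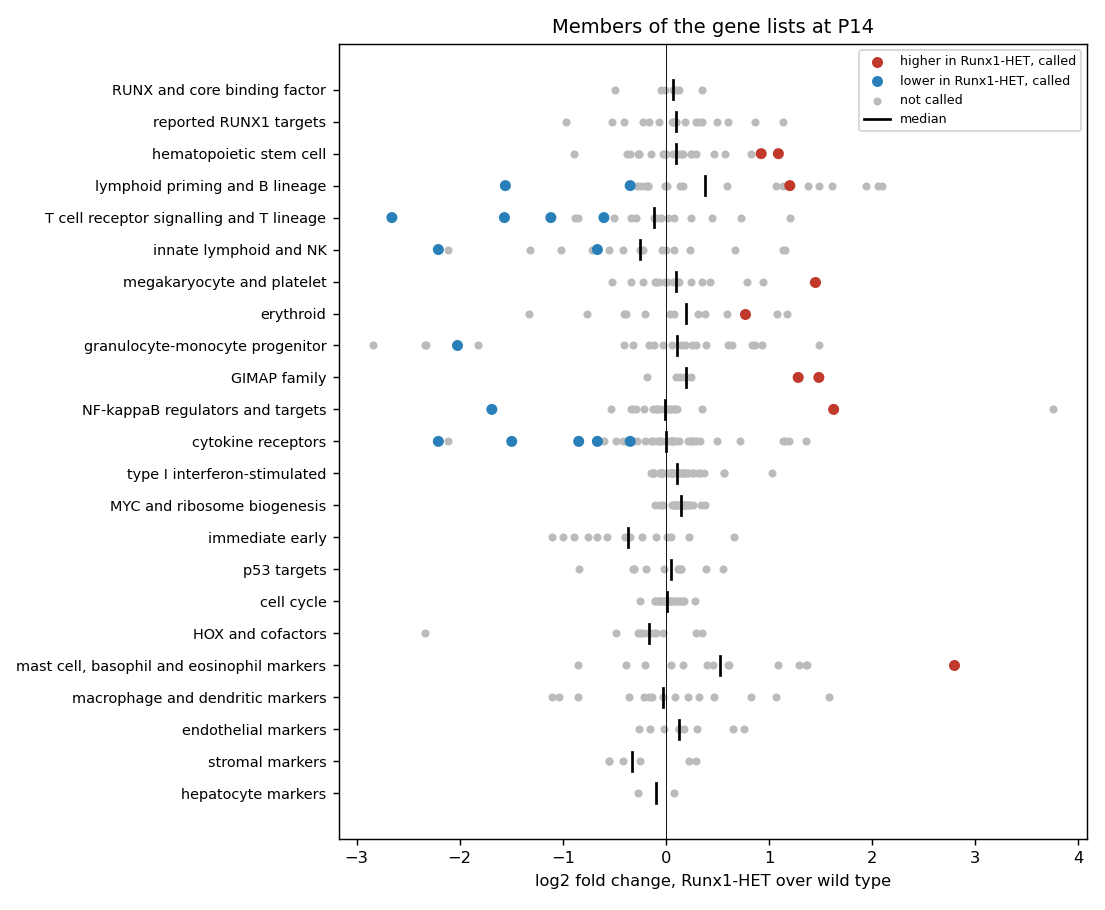
Log2 fold change of Runx1-HET over wild type for each tested member of the gene lists (points), with called members in colour and the list's median as a black bar. Most medians lie between -0.4 and 0.4. Some called genes are the outermost of their list (Cd7, Treml1, Gimap4, Cd200r3), while others lie inside its range (Flt3, Gata1, Rag2, Lat, Ltf).

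Called genes lay near each other on the chromosomes in several places. Of the 112, 22 had another called gene within 500 kb, which formed 15 pairs, and 12 pairs changed in the same direction. These were the 6 pairs within the interleukin receptor cluster, Cd48 and Slamf1, Cd200r4 and Cd200r3, Gimap4 and Gimap3, Smim5 and Smim6, Ak4 and Dnajc6, and Lat and Apobr. Krt80 and Krt87, Fscn1 and Daglb, and Drc7 and Mmp15 changed in opposite directions. How many pairs any 112 of the tested genes would form was not tested. As 75 of the 112 were lower, some pairs share a direction from that split alone. In 5 of the pairs, all in the same direction, both genes were called in each of the 8 fits that left out 1 library: the 3 pairs of Il1r1, Il18r1 and Il18rap, Cd200r4 and Cd200r3, and Smim5 and Smim6. Of the genes named in these pairs, Smim5, Smim6, Ak4, Dnajc6, Apobr, Krt80, Krt87, Fscn1, Daglb, Drc7 and Mmp15 were chosen after their values were seen. Chromosome 16, which carries Runx1, held 5 of the 112 among its 433 tested genes (1.15%), against 0.778% of all genes tested. Only chromosomes 1 (1.16%), 7 (1.20%) and 12 (1.20%) had a higher share, and the lowest share of an autosome was on chromosome 14 (0.207%). At an adjusted p under 0.01 chromosome 16 held 3 of 64.

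The difference between Runx1-HET and wild type could be set beside a second one from libraries that share no sample with it, Flt3-ITD with Runx1-HET against Flt3-ITD, 4 libraries each. There 1037 genes passed (7.20% of 14394 tested; 476 higher, 561 lower). Of the 112 genes called without Flt3-ITD, 89 had the same sign with it (79.5%), as had 58.3% of all genes tested. The median log2 fold change with Flt3-ITD was 0.57 for the 37 higher genes, -0.46 for the 75 lower ones and -0.01 for all tested. With Flt3-ITD, 55 of the 112 passed (49.1%, which is 5.30% of the 1037), 47 with the same sign and 8 with the opposite sign. Y-linked counts exceeded those of Xist in 2 of the 4 Flt3-ITD libraries with Runx1-HET and in 4 of the 4 Flt3-ITD libraries, so sex was not balanced in this second comparison. With a term for it in the fit, 739 genes passed there. Without Flt3-ITD with Runx1-HET library 3 the count was 1621, without libraries 2 or 4 of that group it was 687 and 638, and without Flt3-ITD library 2 it was 624.

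Of the 35 named genes that passed in Runx1-HET against wild type, 19 also passed with the same sign with Flt3-ITD. Lck had 105, 82.6, 90.4 and 94.4 CPM in Flt3-ITD with Runx1-HET, against 175, 247, 188 and 174 CPM in Flt3-ITD (-1.07 ± 0.15, edgeR adjusted p = 3.29e-05), and Cd6 had 8.68, 7.85, 7.18 and 6.62 CPM in Flt3-ITD with Runx1-HET, against 25.4, 28.7, 20.1 and 24.3 CPM in Flt3-ITD (-1.70 ± 0.21, edgeR adjusted p = 2.56e-06). Neither pair of groups overlapped, as in the libraries without Flt3-ITD. For Tnip3 the values were 5.47, 2.33, 4.19 and 4.395 CPM in Flt3-ITD with Runx1-HET, against 13.5, 8.39, 12.3 and 11.03 CPM in Flt3-ITD (-1.45 ± 0.21, edgeR adjusted p = 3.34e-05). For Cd200r3 they were 14.7, 8.71, 6.78 and 12.8 CPM in Flt3-ITD with Runx1-HET, against 2.52, 4.44, 1.02 and 2.13 CPM in Flt3-ITD (2.08 ± 0.50, edgeR adjusted p = 0.0131), and for Gimap4 186, 113, 91.7 and 163 CPM in Flt3-ITD with Runx1-HET, against 72.9, 90.3, 71.8 and 67.6 CPM in Flt3-ITD (0.87 ± 0.20, edgeR adjusted p = 0.00976). Mllt3, Pcdh7, Slfn2, Gimap3, Cd200r4, Il1r1, Il18rap, Cd7, Cldn4, Them7, Treml1 and Flt3 also passed with the same sign, with log2 fold changes of 0.78, 1.38, 1.52, 1.37, 1.85, -0.84, -0.63, -1.61, -2.99, -1.36, 0.97 and -0.28 in that order.

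Other genes differed between the backgrounds. The interaction, the change with Flt3-ITD minus the change without it, passed for 242 of the 14394 genes tested (1.68%). Among the 112 it passed for 33 (29.5%), of which 22 had opposite signs in the comparisons and 11 the same sign. The 112 were chosen by the change without Flt3-ITD, which is part of the interaction. That choice alone raises their share, so it cannot be read against the 1.68%. Without Flt3-ITD with Runx1-HET library 3 the interaction passed for 401 genes, and DESeq2 called 384. Rag2 was higher in Runx1-HET than in wild type, but with Flt3-ITD it had 5.29, 6.07, 6.33 and 6.62 CPM in Flt3-ITD with Runx1-HET, against 20.6, 61.6, 21.5 and 30.9 CPM in Flt3-ITD (-2.47 ± 0.28; interaction -3.67 ± 0.38, edgeR adjusted p = 4.12e-06). Tifab, at least 2 times higher in every Runx1-HET library, had 118, 113, 165 and 106 CPM in Flt3-ITD with Runx1-HET, against 129, 255, 118 and 116 CPM in Flt3-ITD, where the groups overlapped (-0.30 ± 0.21; interaction -1.93 ± 0.30, edgeR adjusted p = 8.05e-04). Gata1 had 5.66, 4.91, 6.93 and 5.63 CPM in Flt3-ITD with Runx1-HET, against 13.6, 12.7, 9.02 and 8.73 CPM in Flt3-ITD (-0.93 ± 0.19; interaction -1.70 ± 0.27, edgeR adjusted p = 3.35e-04). Rag2 and Gata1 passed in both comparisons, higher without Flt3-ITD and lower with it.

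Of the genes that were lower, Il18r1 had 9.77, 15.7, 12.5 and 11.95 CPM in Flt3-ITD with Runx1-HET, against 19.2, 12.9, 17.03 and 14.7 CPM in Flt3-ITD (-0.36 ± 0.25; interaction 1.85 ± 0.39, edgeR adjusted p = 0.00683), while for its neighbour Il18rap the interaction did not pass (with Flt3-ITD -0.63 ± 0.12; interaction 0.03 ± 0.17, edgeR adjusted p = 0.973). Ccr9 was lower in both backgrounds and more so with Flt3-ITD, where it had 0.708, 0.184, 0.199 and 0.117 CPM in Flt3-ITD with Runx1-HET, against 11.4, 18.3, 10.1 and 13.1 CPM in Flt3-ITD (-5.34 ± 0.49; interaction -3.79 ± 0.61, edgeR adjusted p = 8.65e-04). Lat, which acts downstream of Lck, had 57.5, 52.5, 59.05 and 51.98 CPM in Flt3-ITD with Runx1-HET, against 55.4, 53.9, 67.5 and 48.4 CPM in Flt3-ITD, with overlap (-0.03 ± 0.10; interaction 0.58 ± 0.14, edgeR adjusted p = 0.0218). Over the 22 lymphoid priming genes, none rose and 17 fell with Flt3-ITD (median -3.08), against 1 that rose and 2 that fell without it (median 0.38). Over the 19 T lineage genes, 8 fell with Flt3-ITD (median -1.61) and 4 without it (median -0.11). Over all 14394 genes tested, 476 rose and 561 fell with Flt3-ITD, a share called of 7.20%. Without it 37 rose and 75 fell, a share of 0.778%. Calls were thus more frequent with Flt3-ITD over all genes too.

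**Figure D5:**
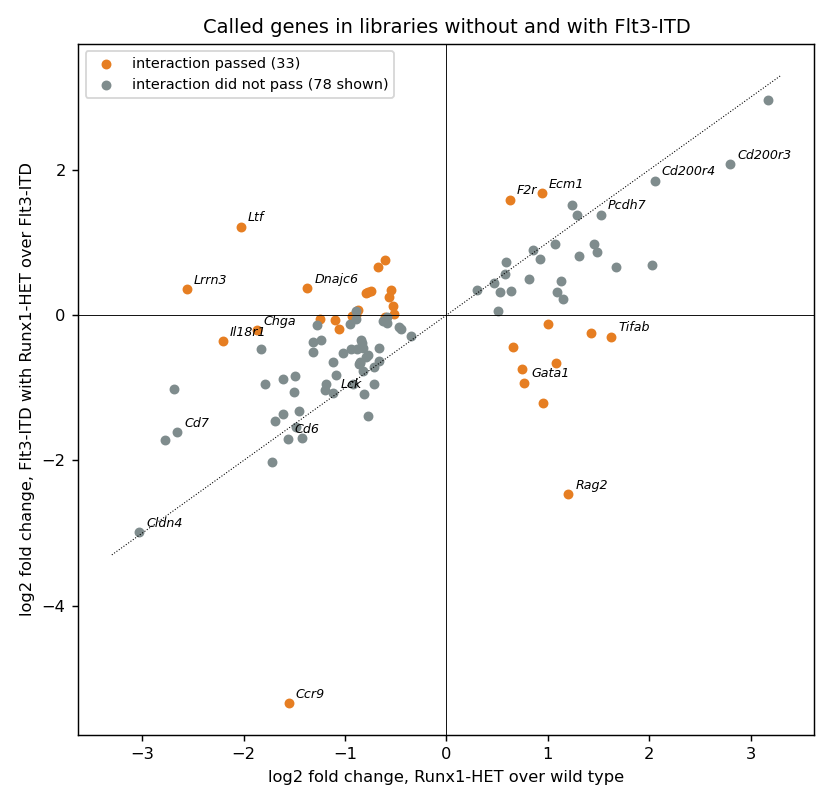
Log2 fold change with Flt3-ITD (vertical, Flt3-ITD with Runx1-HET over Flt3-ITD) against that without it (horizontal, Runx1-HET over wild type) for 111 of the 112 genes called without Flt3-ITD, Sva being off the scale, with the 33 whose interaction passed in orange. 89 genes lie in the quadrants of equal sign, counting Sva, while Rag2, Tifab and Gata1 lie below the horizontal axis and Lrrn3 and Ltf above it.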

How the data were processed

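RNA was measured in hematopoietic progenitors with a Qiagen column extraction and Clontech cDNA amplification, per the labels' protocols. The deposited values are raw counts per Ensembl gene ID, for which the submitters' processing notes name featureCounts 1.4.5. Genome build, annotation and strand setting are not given in the sources used here, so overlapping genes may share reads. Gene names and positions came from GENCODE M21 (GRCm38), which matched 40340 of 41388 IDs, and promoter windows from RefSeq (GRCm38.p6). Groups follow the genotype and age labels. The 16 per-sample columns of day 0 mice were not used.

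Counts of the 24 libraries of 14-day-old mice were filtered with filterByExpr, scaled by TMM and fitted with edgeR 4.0.16 in R 4.3.3 (quasi-likelihood test, robust dispersion, 1 mean per group, limma 3.58.1). Contrasts were Runx1-HET minus wild type, Flt3-ITD with Runx1-HET minus Flt3-ITD, and their difference. P-values were adjusted by Benjamini-Hochberg over all genes tested, and a call means an adjusted p under 0.05. CPM are TMM-scaled counts. The genes tested hold 99.9% of the counts. The code was tested on simulated data.

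Genes were named by a rule: the RUNX list, the 12 highest and 12 lowest fold changes among called genes that average 0 or more log2 CPM and show no overlap of the groups, every called list member, and up to 3 members of lowest p in a list without a call. Other list members, cluster neighbours and genes so marked were chosen after their values were seen. 1 gene of the 12 lowest is not reported here. The comparison, the rule and the gene lists were chosen with earlier results of these data known.

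Alternatives were DESeq2 1.42.0, RLE scaling, no or a stricter filter (1 CPM in 4 libraries), a replicate block, a sex term, only the groups compared in the fit, and each library left out. Motif intervals are exact binomial (Clopper-Pearson) over windows, not genes, and were computed with scipy 1.17.1.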

Additional observations from a re-analysis of the deposited data

Results flagged for a closer look

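Among the 4 libraries of a group, a library was marked where its gap to the nearest other, divided by the range of the group, passed Dixon's 95% critical value. Of 154 group tests over 77 named genes, 7 were marked, and chance marks about 1 in 20. Cd7 was lower in wild type library 1, at 2.17 CPM, than in the other wild type libraries. The remaining 6 were sex-linked genes in the only library of each group with more Y-linked than Xist counts. Kdm5d was at 24.5 CPM in Runx1-HET library 4 and 18.3 CPM in wild type library 2, Ddx3y at 128 CPM in Runx1-HET library 4 and 102 CPM in wild type library 2, and Xist at 0.261 CPM in Runx1-HET library 4 and 0.205 CPM in wild type library 2.

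For 13 named genes the change labelled Runx1-HET differed with and without Flt3-ITD, by the interaction test of edgeR (adjusted p under 0.05). The change with Flt3-ITD minus that without it, on the log2 scale, was above 0 for Ltf (3.24), Lrrn3 (2.92), Il18r1 (1.85), Chga (1.66) and Lat (0.58). It was below 0 for Ccr9 (-3.79), Rag2 (-3.67), Tifab (-1.93), Oas1g (-1.81), Gata1 (-1.70), Chd7 (-1.67), Myc (-0.77) and Egfl7 (-0.56). Oas1g, Myc and Egfl7 were not called in Runx1-HET against wild type. The others were called by that difference, which is part of the interaction.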

How the results depend on the processing

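The 35 named genes that passed kept their direction under every alternative run. Of their 245 values under settings other than leaving out a library, 229 kept their call and 16 lost it, and of 280 with 1 library left out, 43 lost it. With only the 8 libraries in the fit, the lost calls included Stx11, Slfn2, Ccr9, Flt3, Gata1, Ltf and Il1r2 (edgeR adjusted p = 0.0573 to 0.349), and that fit held 79 of the 112 calls among its 110 (49 higher, 61 lower, a split nearer to even than 37 and 75). Without a filter Rag2 and Ltf were among those that lost their calls, with RLE scaling Flt3, and with a sex term Flt3 and Gata1.

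DESeq2 called 207 genes against 112 (81 higher, 126 lower) and 384 interactions against 242. Leaving out 1 library gave 73 to 176 calls, 25 to 64 higher and 47 to 112 lower, 624 to 1621 calls within Flt3-ITD against 1037, and 168 to 401 interactions. The cause was not tested. Among 42 named genes without a call, 9 values gained one and 14 changed sign. With 1 library left out, log2 fold changes spanned -0.024 to 0.15 for Runx1, -0.11 to 0.016 for Runx2, -0.042 to 0.0504 for Cbfa2t3, -0.048 to 0.22 for Afp, -5.18 to 7.25 for Kdm5d, -5.56 to 7.02 for Ddx3y and -0.72 to 0.11 for Xist.

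The labels do not say whether replicate numbers pair the libraries. The correlations of same-numbered deviations were -0.09, 0.05, 0.05 and -0.10, against -0.16 to 0.14 for libraries of unlike number. So few libraries cannot exclude a shared litter, batch or day. With the number as a replicate block 113 genes passed (103 of the 112), Tfcp2l1 and Gata1 lost their calls, and Kdm5d and Ddx3y changed sign to -0.28 and -0.65.

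In the promoter windows, TGTGGT alone was in 22.9% of those of lower genes, 21.2% of those of higher genes and 13.2% of those of all genes tested, and TGCGGT alone in 12.05%, 3.03% and 9.24%.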
